A study of Mus musculus with 15 samples.

Results

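The mouse Hox gene clusters carry the genes of miR-10a, miR-10b, the miR-196 family and miR-615, and their assays were followed here through every condition of a miRNA profiling of pancreatic endocrine cell lines. Assays were chosen by name (miR-10a, miR-10b, miR-196a, miR-196b, miR-196c or miR-615, any arm), which gave 9 of the 584 miRNA assays of the panel. The main strands of the miR-10 hairpins, mmu-miR-10a and mmu-miR-10b, are called miR-10a and miR-10b here. The study asked which miRNAs differ between α and β cells, and which respond to cytokines in α cells. TaqMan low density arrays, in the form of cards A and B, were used for real-time PCR of 15 samples that formed 5 groups of 3 independent biological replicates. The groups were αTC1-6 (a mouse glucagonoma line) without treatment at 24 h, αTC1-6 with cytokines at 24 h, αTC1-6 without treatment at 48 h, αTC1-6 with cytokines at 48 h, and βTC1 (a mouse insulinoma line) without treatment at 24 h. The cytokine cocktail held IL-1β at 50 IU/ml with IFN-γ and TNF-α each at 1000 IU/ml. Each cell type is represented by a single tumour line, and no cytokine-treated βTC1 sample was analysed here.

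MiRNAs are short RNAs cut from a hairpin precursor, and they repress messenger RNAs that pair with their seed, the bases near the 5′ end. A hairpin can release a strand from each arm. In the older naming of these cards the star marks the strand that is usually the scarcer. MiR-10 and miR-196 genes lie between Hox genes, are expressed along the body axis in patterns that resemble those of neighbouring Hox genes, and repress Hox messenger RNAs. MiR-615 lies inside a Hox gene. In the RefSeq annotation of the mouse genome (GRCm38.p6), Mir10a lies within the span of Hoxb3 between Hoxb5 and Hoxb4, and Mir10b within the spans of Hoxd3 and Hoxd4. Mir196b lies between Hoxa9 and Hoxa10, Mir196a-1 between Hoxb13 and Hoxb9, Mir196a-2 between Hoxc10 and Hoxc9, and Mir615 within Hoxc5.

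RefSeq held the mature sequence of 7 of the 9 assays, and the strands on which the results turn are printed 5′ to 3′ with the seed, bases 2 to 8, in capitals. MiR-10a (chr11:96317186-96317208, plus strand) and miR-10b (chr2:74726074-74726096, plus strand) are shown first because they share a seed and have nearly the same sequence.
miR-10a-5p: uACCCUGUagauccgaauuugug
miR-10b-5p: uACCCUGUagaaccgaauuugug
Counted from 1 at the 5′ end, with the base of miR-10a first, they differ by U12A alone. How far the assay of one also detects the other was not tested. Their star strands (chr11:96317227-96317248 and chr2:74726114-74726135, both plus strand) are given because they come from the same hairpins and were measured separately.
miR-10a-3p: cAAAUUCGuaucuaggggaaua
miR-10b-3p: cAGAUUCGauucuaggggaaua
The star strands differ by A3G, U9A and A10U, so that one of the differences falls in the seed. MiR-196b (chr6:52230129-52230150, minus strand) is set beside miR-196a-5p, which was not itself among the assays, and let-7a.
miR-196b-5p: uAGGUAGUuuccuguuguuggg
miR-196a-5p: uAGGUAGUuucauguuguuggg
let-7a-5p: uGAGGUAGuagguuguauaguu
MiR-196b and miR-196a-5p share their seed and differ by C12A. The seeds of miR-196b and let-7a share a run of 6 bases. Both arms of miR-615 (chr15:103014926-103014990, plus strand) were measured, and neither shares a seed with the strands above.
miR-615-3p: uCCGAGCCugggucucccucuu
miR-615-5p: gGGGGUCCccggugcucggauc
No sequence is printed for miR-196a*, or for miR-196c, whose assay is named for the rat.

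Levels are given as ΔCt, the threshold cycle (Ct) of an assay minus that of miR-26a in the same sample, so that a lower ΔCt is a higher level and 1 cycle is a factor of 2. ΔCt was not compared between assays. For miR-26a itself the Ct ran from 16.97 to 18.98. A well without amplification is undetermined and has no ΔCt, and it entered the tests at a Ct of 40. The tables of normalized and non-normalized values disagree on such wells: at 24 h, from 71 to 94 wells per sample were undetermined only in the normalized table, against 8 to 13 at 48 h. Per sample, 213 to 336 assays of card A had a Ct in the normalized table and 307 to 347 in the non-normalized table. On card B these numbers were 174 to 191 and 173 to 188. Both tables are therefore given for the assays they divide. The islet miRNA miR-375 had a Ct in every untreated 24 h sample of both lines.

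**Figure D1:**
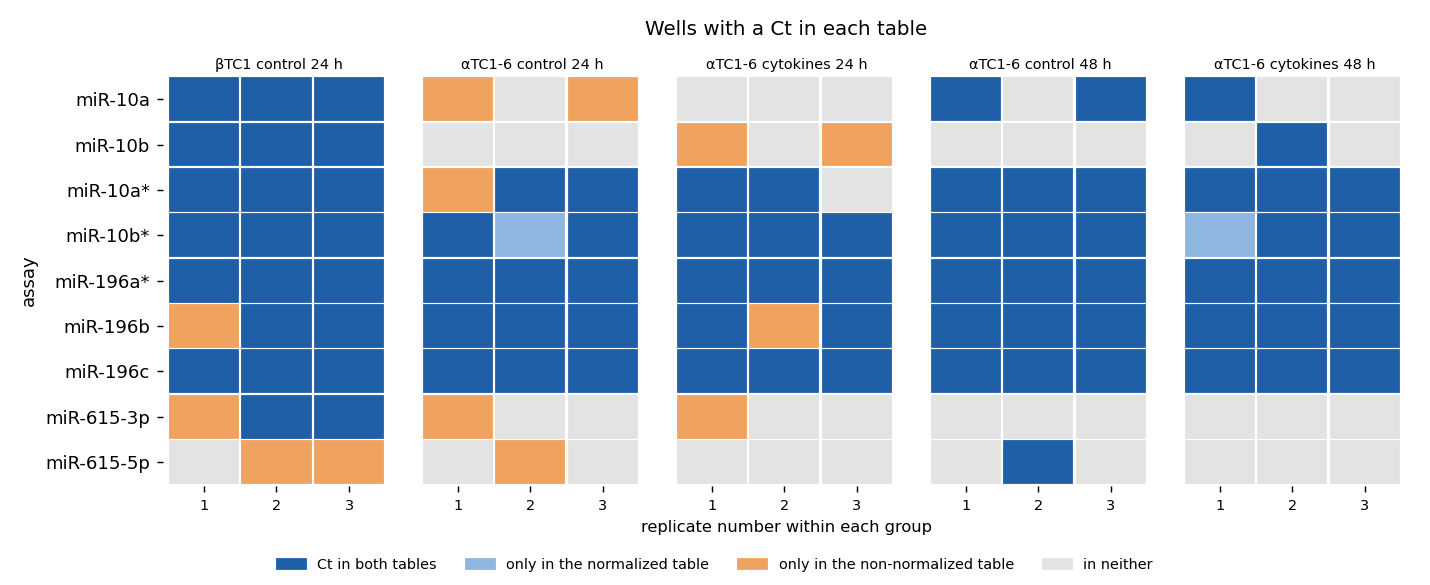
Assays (rows) with a Ct in each sample (columns, replicates 1 to 3 of the 5 groups), with colours for a Ct in both tables, in only one of them, or in neither. MiR-196c and miR-196a* are filled throughout, miR-10a and miR-10b are filled in the 3 βTC1 samples and mostly empty in αTC1-6, and all 13 cells with a Ct only in the non-normalized table are at 24 h.

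At steady state, the 3 βTC1 samples lay above the 3 untreated αTC1-6 samples of 24 h in miR-10a, without overlap in either table. Its ΔCt in βTC1 was 3.33, 1.30 and 1.39 in replicates 1, 2 and 3 (2.01 ± 1.15, SD, n = 3). In untreated αTC1-6 at 24 h, all 3 wells were undetermined in the normalized table. The non-normalized table gave replicates 1 and 3 a Ct of 25.97 and 23.87, or a ΔCt of 6.99 and 6.18, and left replicate 2 undetermined. The highest αTC1-6 level of the non-normalized table lay 2.85 cycles from the lowest βTC1 level. How many of all assays went without overlap in that table, undetermined samples included, was not counted. In untreated αTC1-6 at 48 h, where the tables gave the same values, miR-10a had a ΔCt of 8.65 in replicate 1 and 16.80 in replicate 3 and was undetermined in replicate 2. All 3 were again lower in level than every βTC1 sample, but they spread over more than 8 cycles among themselves.

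MiR-10b had a Ct in every βTC1 sample and in no untreated αTC1-6 sample, and in untreated cells the tables gave the same values for it. Its ΔCt in βTC1 was 6.60, 4.95 and 6.15 (5.90 ± 0.852, SD, n = 3). It was undetermined in the 3 untreated αTC1-6 samples of 24 h and in the 3 of 48 h, in both tables. The lines therefore did not overlap, and no αTC1-6 control gave a level. Of 583 assays other than miR-26a, 28 (4.8%) amplified in the normalized table in each βTC1 sample but in none of the untreated αTC1-6 samples of 24 h, miR-10a and miR-10b among them. In both tables at once only 3 did (0.515%), namely miR-10b, miR-542-5p and miR-218-2*. At a Ct of 30.95 to 33.98 in βTC1, miR-542-5p was a late amplifier, whereas miR-10b had a Ct of 24.98, 23.69 and 23.69.

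**Figure D2:**
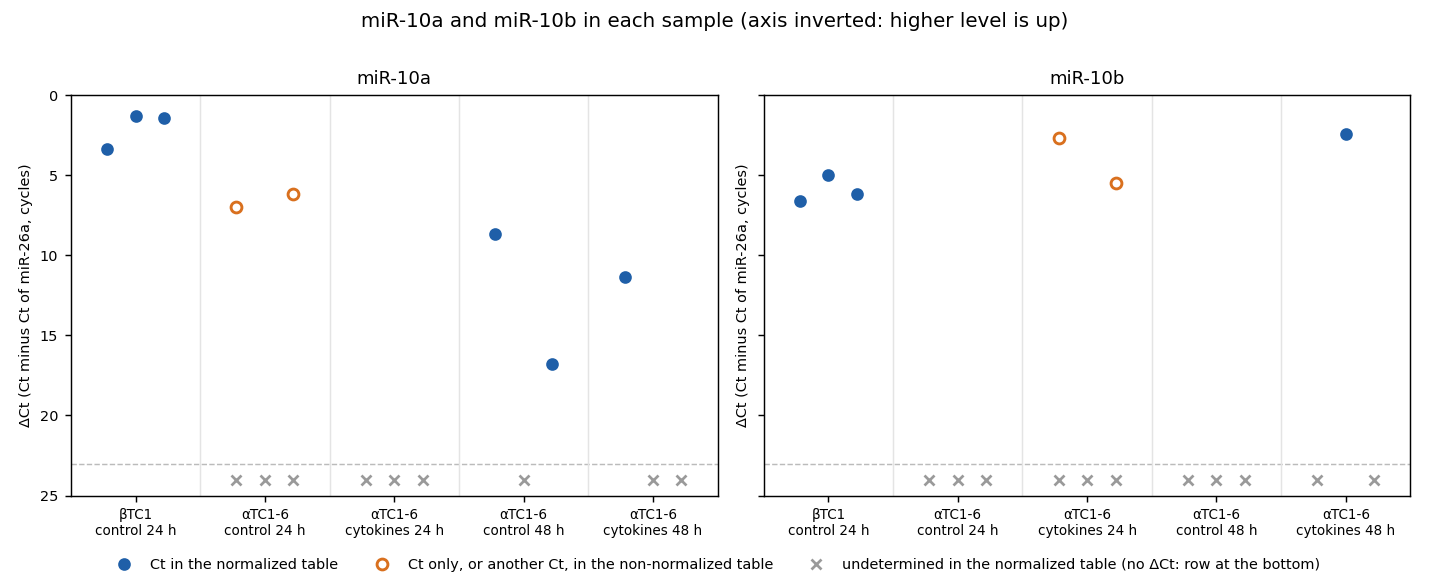
ΔCt (cycles, inverted so that a higher level is up) of miR-10a and miR-10b in each sample of the 5 groups, replicates 1 to 3 from left to right. Filled points have a Ct in the normalized table, open points have one only in the non-normalized table, and crosses below the dashed line are undetermined wells of the normalized table. For miR-10b no point stands over either untreated αTC1-6 group, and open or filled points stand over both treated groups.

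With undetermined wells at a Ct of 40, limma gave a log2 difference (αTC1-6 minus βTC1) of -19.92 for miR-10a (SE 0.776, Benjamini-Hochberg adjusted p = 1.27e-05) and -16.03 for miR-10b (SE 0.680, adjusted p = 1.53e-05). Both assays entered the test only through the 3 βTC1 samples. All 3 αTC1-6 values were the substituted Ct of 40, so that their spread was that of miR-26a alone, and the sizes, SE and p-values are set by that substitution. For miR-10a, the non-normalized table gave -9.87 (SE 4.68, limma adjusted p = 0.223) and the 48 h controls -14.15 (SE 3.62, adjusted p = 0.0266), in a range of adjusted p from 1.31e-05 to 0.223 over all alternatives. In both of these fits αTC1-6 replicate 2 was undetermined and entered at the substituted Ct of 40, so their sizes and SE also depend on it. For miR-10b, the non-normalized table, with the same substituted values, gave -16.03 (SE 0.697, limma adjusted p = 0.000178), and the adjusted p lay between 5.42e-06 and 0.00500 over all alternatives. Neither could be tested without any 1 of the βTC1 samples, since too few samples then had a Ct.

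The star strands of both miR-10 hairpins amplified in αTC1-6 samples in which the other strand did not. MiR-10a* was measured in duplicate wells on card B, and its ΔCt in βTC1, as the mean of the wells, was 9.61, 8.17 and 6.79 (8.19 ± 1.41, SD, n = 3). In untreated αTC1-6 at 24 h it was 13.27 in replicate 2 and 13.66 in replicate 3, and replicate 1 had an undetermined well and a blank one. The non-normalized table, which holds 1 value per assay, gave 11.86, 13.58 and 14.29 there, against 9.70, 7.98 and 7.01 in βTC1. Every βTC1 sample was thus higher in level than every untreated αTC1-6 sample of 24 h in both tables. In the non-normalized table this held for 92 of the 406 assays with a Ct in all 6 samples (22.7%), and for miR-10a* the difference was -5.01 (αTC1-6 minus βTC1 in level, exact permutation test, two-sided p = 0.1, the smallest that 3 against 3 allows). In the normalized table limma gave -7.79 (SE 2.27, adjusted p = 0.131), and the undetermined replicate 1 decided the call. Without that sample the difference was -5.28 (limma adjusted p = 0.0414), in the non-normalized table -5.01 (adjusted p = 0.0368), and over all alternatives the adjusted p ranged from 0.0155 to 0.255.

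MiR-10b* had a mean ΔCt of 12.19, 12.06 and 10.80 in βTC1 and of 12.38, 17.60 and 14.59 in untreated αTC1-6 at 24 h. The groups did not overlap, by a margin of less than 1 cycle between replicate 1 of each line, and replicate 2 of αTC1-6 had an undetermined well beside one with a ΔCt of 12.76. How many of all assays did not overlap in the normalized table was not counted. The difference of -3.18 did not pass the test (SE 1.38, limma adjusted p = 0.279, exact permutation p = 0.1). In the non-normalized table αTC1-6 replicate 1 had a Ct of 12.78, which is a ΔCt of -6.20, in place of the ΔCt of 12.38 in the normalized table. With that well the difference turned to 1.24 (limma adjusted p = 0.905). Among the 12 αTC1-6 samples of the normalized table, miR-10b* had a Ct in 12 and miR-10b in 1, while miR-10a* had one in 10 and miR-10a in 3.

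**Figure D3:**
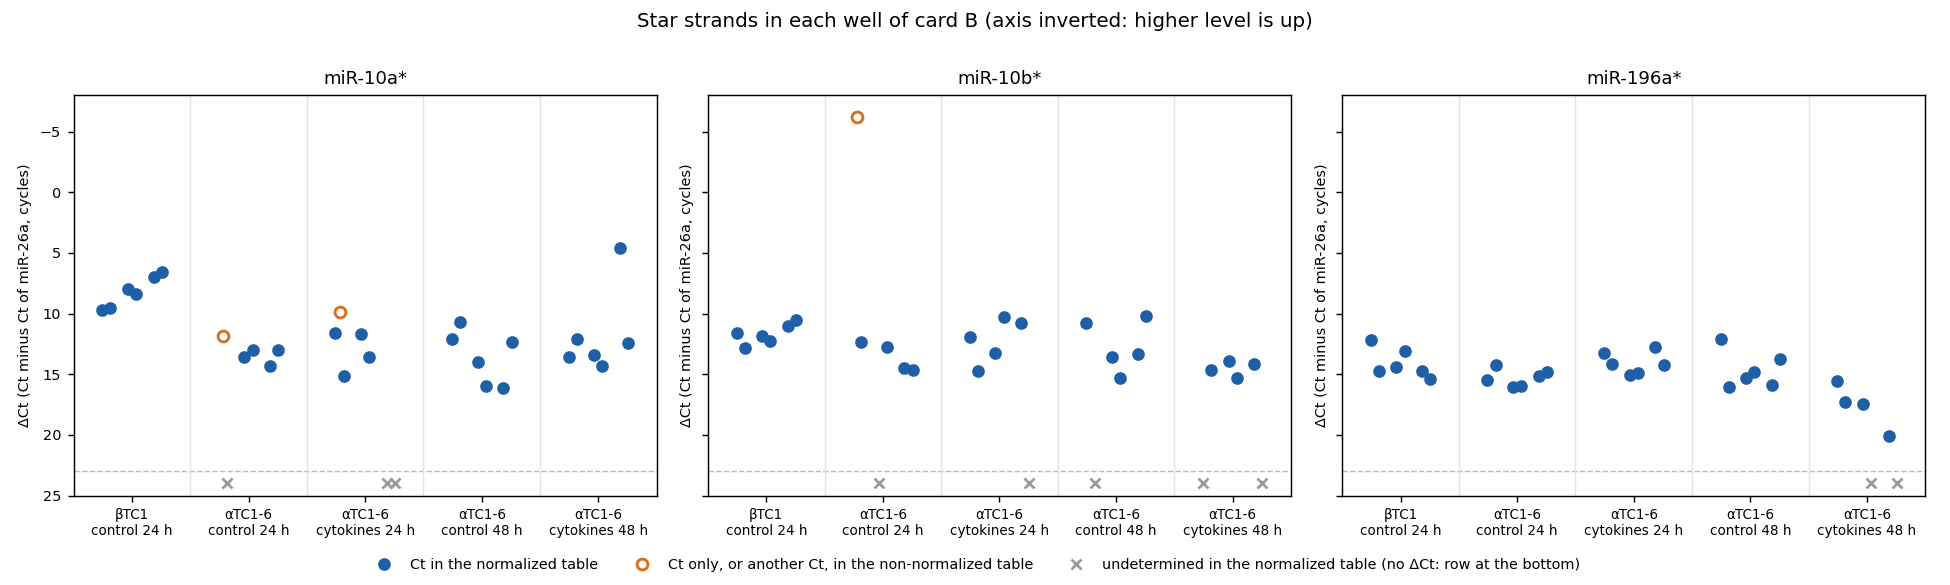
ΔCt (cycles, inverted so that a higher level is up) of miR-10a*, miR-10b* and miR-196a* in each well of card B, paired wells of a sample side by side, with symbols as in the plot of miR-10a and miR-10b. All 6 wells of miR-10a* in βTC1 lie between 6.57 and 9.70, above the wells of untreated αTC1-6 at 24 h, and 2 of the 6 wells of miR-196a* in αTC1-6 treated for 48 h are undetermined.

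The miR-196 assays amplified late in both lines and did not separate them. MiR-196c, with a Ct in all 15 samples and the same values in both tables, had a ΔCt of 15.60, 11.23 and 11.40 in βTC1 and of 13.02, 14.32 and 13.88 in untreated αTC1-6. Replicates 2 and 3 of βTC1 were higher in level than all of these αTC1-6 samples and replicate 1 was lower, so the groups overlapped (log2 difference -1.00, SE 1.31, limma adjusted p = 0.601, exact permutation p = 0.5). Without that βTC1 replicate 1 the difference was -2.43 and passed the test (limma adjusted p = 0.0404), while the adjusted p lay between 0.474 and 0.918 over the other alternatives.

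MiR-196b had a ΔCt of 14.24 and 14.36 in βTC1 replicates 2 and 3, and replicate 1 was undetermined although the non-normalized table gave it a Ct of 33.05. In untreated αTC1-6 it was 13.97, 14.48 and 15.31. The samples with a Ct overlapped, and the difference of 2.15 (SE 2.12, limma adjusted p = 0.488) rested on the undetermined well. It became -0.29 without that sample (limma adjusted p = 0.766) and -0.79 in the non-normalized table (adjusted p = 0.841), where αTC1-6 replicate 2 had a Ct of 28.55 in place of 32.03 and βTC1 replicate 2 one of 27.62 in place of 32.97. MiR-196a*, the minor strand of miR-196a, had a mean ΔCt of 13.47, 13.72 and 15.08 in βTC1 and of 14.84, 16.05 and 14.96 in untreated αTC1-6, which overlapped (log2 difference -1.19, SE 0.651, limma adjusted p = 0.398, exact permutation p = 0.3). In the non-normalized table they did not overlap (exact permutation p = 0.1). There βTC1 lay above αTC1-6 without overlap for 92 of the 406 assays with a Ct in all 6 samples (22.7%).

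MiR-615-3p was found in βTC1 and not, in the normalized table, in any of the 12 αTC1-6 samples, 1 of which had a blank well. Its ΔCt in βTC1 was 6.30 and 7.35 in replicates 2 and 3, and replicate 1 was blank, with a Ct of 24.87 in the non-normalized table. That table gave βTC1 a ΔCt of 6.49, 6.30 and 6.03, and αTC1-6 a Ct in only 2 samples. One was the untreated replicate 1 of 24 h, with a ΔCt of 7.74, and the other the treated replicate 1 of 24 h, with 10.07. The lines did not overlap, and the nearest samples were 1.25 cycles apart. How many of all assays went without overlap when undetermined samples are included was not counted. With a Ct in 2 of 6 samples the assay did not enter the test. In the non-normalized table, with 2 of the 3 untreated αTC1-6 samples at the substituted Ct of 40, limma gave -11.23 (SE 4.29, adjusted p = 0.140). Without the filter the normalized table gave -15.10, a value set by the substitution, since all 3 αTC1-6 samples entered at 40 and only 2 βTC1 samples had a Ct.

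MiR-615-5p had a Ct in a single sample of the normalized table, the untreated αTC1-6 replicate 2 of 48 h, at 19.07, and 3 of its 15 wells were blank. The other untreated αTC1-6 samples of 48 h gave no Ct. The non-normalized table added a Ct of 18.38 in the untreated αTC1-6 replicate 2 of 24 h, and of 29.65 and 28.96 in βTC1 replicates 2 and 3. The 2 αTC1-6 wells were thus over 9 cycles earlier than those of βTC1, and the other replicates of their groups did not amplify. No group had a Ct in all 3 samples and no test was made. In the normalized table, 16 of 583 assays had a Ct in exactly 1 of the 12 αTC1-6 samples, with a median of 30.70, and in 6 of these it was under 21, miR-615-5p and miR-10b among them.

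**Figure D4:**
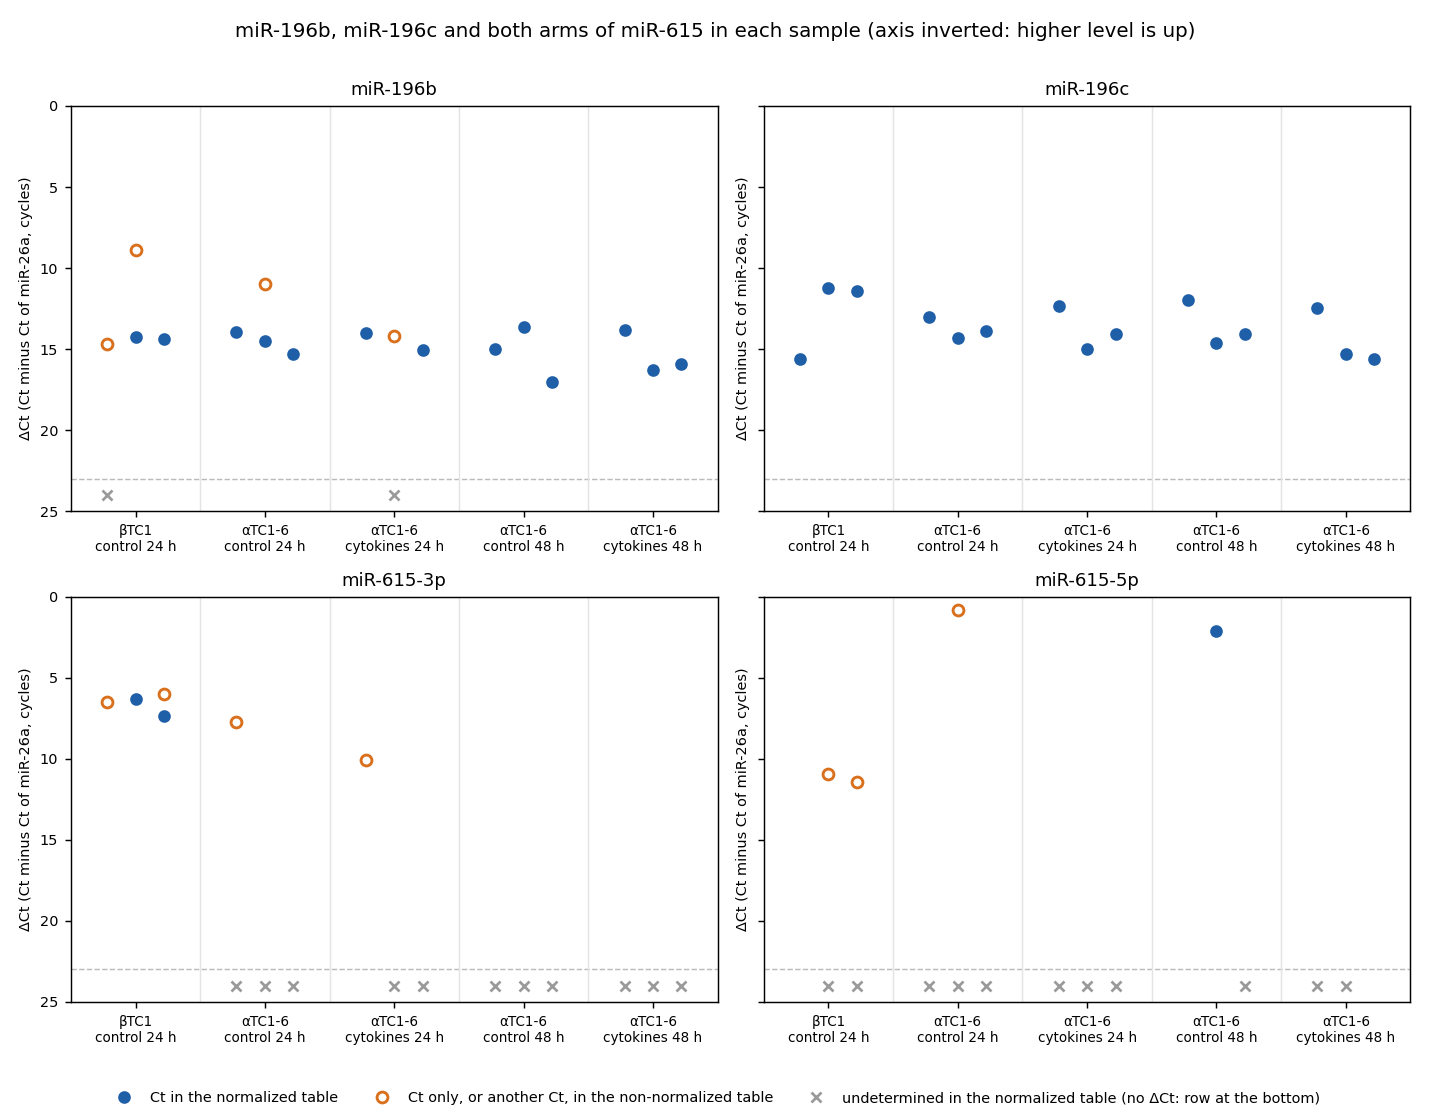
ΔCt (cycles, inverted so that a higher level is up) of miR-196b, miR-196c, miR-615-3p and miR-615-5p in each sample, with symbols as in the plot of miR-10a and miR-10b. MiR-196b and miR-196c lie at similar heights in all groups, miR-615-3p stands between 6.03 and 7.35 in βTC1, and miR-615-5p has 1 filled point, in untreated αTC1-6 at 48 h.

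Of the 9 assays, 7 were tested between the lines and 2 passed, miR-10a and miR-10b, for which the αTC1-6 values were substituted. Among all 480 assays tested, 29.6% passed in either direction and 85 passed as lower in αTC1-6 (17.7%). The median difference was -0.52 over all assays tested and it moved to -0.12 when samples were centred on the median Ct of the assays found in every sample. Under that centring the difference was -19.50 for miR-10a, -15.61 for miR-10b and -7.38 for miR-10a*, since centring shifts all assays of a sample alike.

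**Figure D5:**
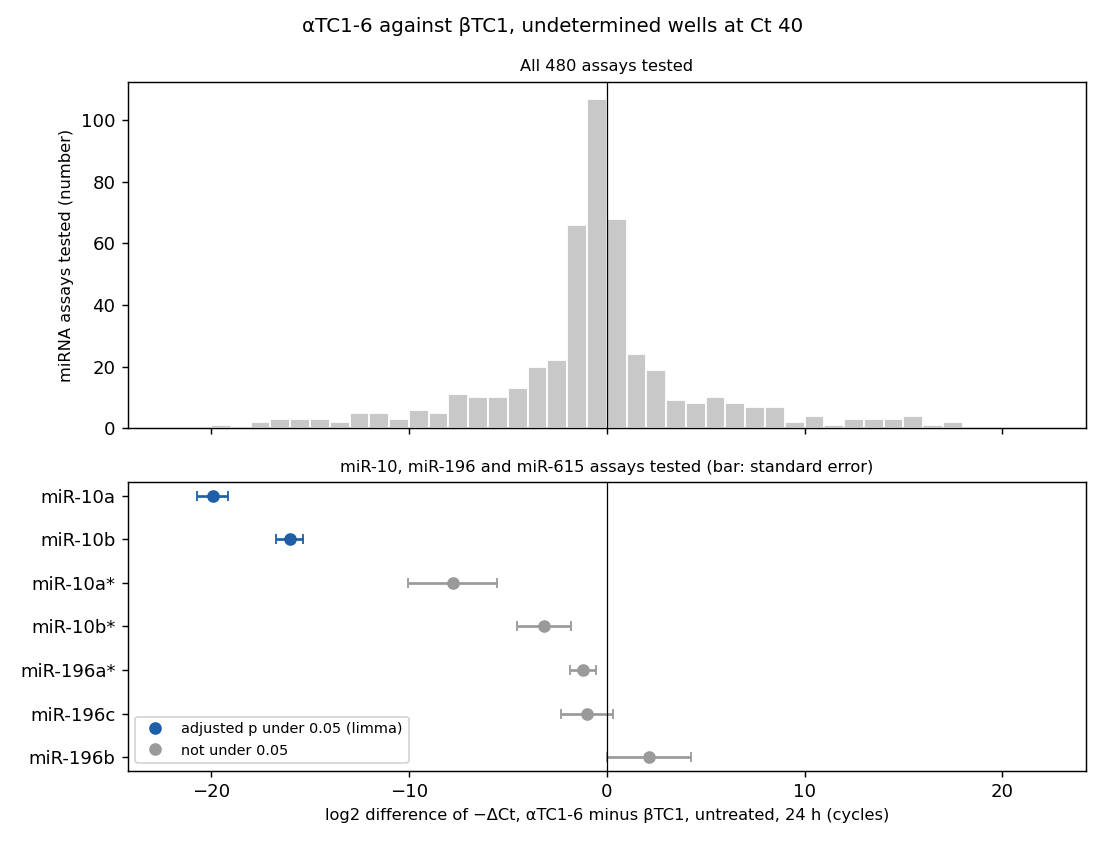
Log2 differences of −ΔCt (αTC1-6 minus βTC1, in cycles) as a histogram of the 480 assays tested (top) and as points with standard error for the 7 Hox-cluster assays tested (bottom). MiR-10a at -19.92 and miR-10b at -16.03, whose αTC1-6 values are the substituted Ct of 40, lie at the far left of the histogram, while the miR-196 assays lie between -1.19 and 2.15.

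Relatives by seed were set beside these assays. MiR-99a, miR-99b and miR-100 share the first 4 bases of the miR-10 seed, and of these 3 only miR-99b was tested. MiR-99b had a mean ΔCt of 1.37 in untreated αTC1-6 and 1.70 in βTC1 (log2 difference 0.33, SE 0.496, limma adjusted p = 0.642). MiR-99a and miR-100 had no Ct in either line in the normalized table. In the non-normalized table miR-99a had one in 1 of 3 untreated αTC1-6 samples of 24 h and 2 of 3 βTC1 samples. MiR-100 had one there in 0 of 3 and 2 of 3. The main strands of let-7 and miR-98, whose seed overlaps that of miR-196, gave 9 assays, of which 9 were tested and 0 passed, with a median difference of -0.65. The star strands come from the other arm, and of the 2 tested for miR-99 and miR-100 and the 7 for let-7 and miR-98, 0 passed.

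Some markers of other tissues differed between the lines, and their part in the difference of miR-10a and miR-10b was not tested. All 3 exocrine pancreas markers, miR-216a, miR-216b and miR-217, were called higher in βTC1, with all αTC1-6 values at the substituted Ct of 40. Their summed level relative to miR-26a was 0 in every untreated αTC1-6 sample of 24 h and 0.0261 to 0.0979 in βTC1. In the non-normalized table each had a Ct in 1 of those 3 αTC1-6 samples. For miR-216a this was replicate 2, with a ΔCt of 2.37, higher in level than every βTC1 sample (the nearest at 6.13). For miR-216b (12.93, replicate 1) and miR-217 (13.92, replicate 2) the level was lower than in every βTC1 sample. At 48 h, miR-216b had a Ct in all 3 untreated αTC1-6 samples in both tables. Its ΔCt there was 13.18 to 17.76, also lower in level than βTC1, and miR-216a and miR-217 had no Ct. The other lists, each higher in βTC1 where called, gave calls for 2 of 2 tested endothelial assays (miR-126-3p -2.39, miR-126-5p -2.39), 1 of 4 mesenchymal (miR-145 -1.90), 1 of 3 blood (miR-142-3p -2.96) and 2 of 5 muscle assays. Their summed levels in αTC1-6 and βTC1 were 0.00652 to 0.0144 and 0.0397 to 0.0623 for endothelium, 6.58e-05 to 0.000191 and 0.000125 to 0.000529 for blood, and 0.000269 to 0.000931 and 0.00111 to 0.00435 for muscle. For mesenchyme, with a median difference of 0.24, they were 0.000441 to 337.8 and 0.00129 to 0.00352. The end at 337.8 is a level far above that of miR-26a itself, and the wells behind it were not examined. Of the tested mesenchymal assays, miR-145 and miR-199a-3p had a mean ΔCt of 12.14 and 11.12 in αTC1-6. Their log2 differences were -1.90 and -0.49, while miR-199b* (0.96) and miR-214* (2.89) went the other way and were not called. MiR-199a-5p, miR-214 and miR-143 had no Ct in either line in the normalized table. In the non-normalized table miR-214 and miR-143 had one in all 3 samples of each line, and miR-199a-5p in none. Of the 5 islet assays 0 were called. The liver marker miR-122 was not tested, at 0 in αTC1-6 and from 0 to 0.000597 in βTC1 in the normalized table. In the non-normalized table it had a Ct in all 3 of these samples of each line.

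Cytokines changed none of these assays past the test at either time. At 24 h, 5 of the 9 were tested and 0 were called, with limma adjusted p from 0.839 to 0.994, where 1 of 445 assays was called in all (0.225%). At 48 h, 6 were tested and 0 called, with limma adjusted p from 0.198 to 0.970, where 3 of 534 were called (0.562%). Between untreated αTC1-6 of 48 h and 24 h, 5 were tested and 0 called, with limma adjusted p from 0.919 to 0.999, against 29 of 489 in all (5.93%). At an unadjusted p under 0.05, the members that passed numbered 0, 1 and 0 in these 3 comparisons, where 4.49%, 11.2% and 8.79% of all assays tested did, and the 1 was miR-196a*. With the replicate number as a block they numbered 1, 1 and 0, against 10.5%, 22.7% and 9.45% of all assays, and both were miR-196a*.

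MiR-10b had a Ct in treated αTC1-6 samples only, among the samples of that line. In the normalized table the treated replicate 2 of 48 h had a ΔCt of 2.38 (Ct 20.09), and replicates 1 and 3 were undetermined. The non-normalized table held the same value and added the treated replicates 1 and 3 of 24 h, with a Ct of 21.56 and 23.44 and a ΔCt of 2.68 and 5.48. In that table it therefore had a Ct in 3 of 6 treated and 0 of 6 untreated αTC1-6 samples, and 2 of the 3 levels were higher than every βTC1 sample. This held, at 3 or more of 6 treated and 0 of 6 untreated, for 6 of 583 assays (1.03%), and the opposite held for 1. Within each treated group some replicates had a Ct of 20.09 to 23.44 and the others none, and the assay did not enter the test. MiR-10a went without a Ct in all 3 treated samples of 24 h in both tables, and at 48 h it had a ΔCt of 11.32 in treated replicate 1 alone (log2 difference against untreated -2.57, SE 4.95, limma adjusted p = 0.877). Treated replicates 2 and 3 and untreated replicate 2 of 48 h entered that fit at the substituted Ct of 40. With undetermined wells as missing, which leaves 1 treated sample, the direction turned (1.40).

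MiR-196a* was higher in level in treated than in untreated samples at 24 h and lower at 48 h, and neither difference passed the test. At 24 h its mean ΔCt was 13.71, 14.99 and 13.50 in treated αTC1-6 against 14.84, 16.05 and 14.96 in the untreated cells of the same replicate numbers. Each treated sample was higher in level than its numbered control, by 1.13, 1.05 and 1.46 cycles, although the groups overlapped (log2 difference 1.21, SE 0.593, limma adjusted p = 0.839, and with the replicate block SE 0.184, unadjusted p = 0.00723, adjusted p = 0.278). At 48 h it was 16.40, 19.86 and 21.32 in treated cells against 14.06, 15.06 and 14.83 in untreated cells. In these values of the normalized table, all 3 treated samples were lower in level than all 3 untreated samples (log2 difference -4.54, SE 1.35, unadjusted p = 0.0193, limma adjusted p = 0.198). In treated replicates 2 and 3 one of the paired wells was undetermined, and the wells with a Ct had a ΔCt of 17.43 and 20.08, also lower in level than the untreated samples. In the non-normalized table the groups of 48 h overlapped, with 15.52, 17.43 and 20.08 in treated against 12.05, 15.32 and 15.90 in untreated cells (log2 difference -3.25, SE 1.61, limma adjusted p = 0.414). At 24 h they did not overlap there (1.87, SE 0.731, limma adjusted p = 0.744). How many of all assays went without overlap in these comparisons was not counted.

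For miR-196a*, the effect of cytokines at 48 h minus that at 24 h was -5.75 (SE 1.52, unadjusted p = 0.00397, limma adjusted p = 0.336). Of 477 assays tested 3.98% had an unadjusted p under 0.05 and 1 passed (0.210%), and of the 5 Hox-cluster assays tested 0 did. Without the treated replicate 1 of 48 h the difference was -7.15 and passed (limma adjusted p = 0.00606), and over all alternatives it lay between -7.15 and -3.64 with an adjusted p from 0.00606 to 0.997. Treatment at 24 h and at 48 h was each compared with its own controls, so no sample was shared.

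The other star strands and miR-196 assays stayed within their spread. At 48 h, miR-10a* had a mean ΔCt of 12.83, 13.88 and 8.51 in treated against 11.35, 14.96 and 14.25 in untreated αTC1-6. Treated replicate 3 stood out through one of its wells, at 4.57 against 12.44 in the other, and the groups overlapped (log2 difference 1.78, SE 1.77, limma adjusted p = 0.559). MiR-10b* had a mean ΔCt of 18.07, 14.59 and 18.36 in treated against 15.88, 14.45 and 11.78 in untreated cells. These groups overlapped as well (log2 difference -2.97, SE 1.53, limma adjusted p = 0.374). In treated replicates 1 and 3 and untreated replicate 1, a well of the pair was undetermined and entered the mean at the substituted Ct. Their wells with a Ct had a ΔCt of 14.63, 14.17 and 10.74. With undetermined wells as missing the difference was -2.14 (limma adjusted p = 0.319), and the groups still overlapped. MiR-196c went from 11.98, 14.64 and 14.04 to 12.49, 15.27 and 15.60 with treatment at 48 h, each treated sample being lower in level than its numbered control, with overlapping groups (log2 difference -0.90, SE 1.16, limma adjusted p = 0.829). The median difference over all 534 assays tested at 48 h was also below 0, at -0.51. MiR-196b was 13.80, 16.31 and 15.94 in treated against 14.98, 13.61 and 17.02 in untreated cells (log2 difference -0.15, SE 1.15, limma adjusted p = 0.970).

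The assays most alike in pattern to miR-10a over the 15 samples, by Pearson's r of −ΔCt among 461 assays, were miR-17 (0.934), miR-542-5p (0.924) and miR-218 (0.899). For miR-10b they were miR-216a (0.999), miR-221 (0.909) and miR-883a-5p (0.862). Undetermined wells entered at a Ct of 40. MiR-17 had a Ct in all 15 samples, with a ΔCt of 2.16, 0.12 and 1.32 in βTC1 and of 3.60 to 5.87 in αTC1-6. MiR-216a had one in the 3 βTC1 samples and, at 20.86, in the same treated αTC1-6 replicate 2 of 48 h as miR-10b. In the non-normalized table, among 570 assays, none of these came first, and the highest values were 0.849 for miR-10a (miR-16*) and 0.850 for miR-10b (miR-224). Between the members themselves, r was 0.624 for miR-10a with miR-10b and 0.617 for miR-10a with miR-10a*, and it was 0.448 for miR-10b with miR-10b*.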

How the data were processed

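The authors amplified reverse-transcribed total RNA on TaqMan Rodent miRNA cards A and B. In the normalized table they deposited log2 values, ΔCt, which are Ct minus the Ct of miR-26a, and in the non-normalized table Ct values. The fold changes they deposited were not used. The methods name multiple reference genes, but ΔCt of miR-26a was 0 in every sample. Undetermined wells were set to a Ct of 40 and duplicate wells of card B were averaged. An assay was tested when the samples with a Ct were no fewer than those without. The samples compared were fitted on negative ΔCt in R 4.3.3 (limma 3.58.1), with Benjamini-Hochberg adjustment within each card at 0.05. Exact permutation tests and all other values came from Python 3.11.15 (numpy 2.4.6, pandas 2.3.3, scipy 1.17.1, matplotlib 3.10.9). The fit was tested on simulated data. Undetermined wells limit the depth of an array and the number of samples limits the precision.

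The assays named were all those of the rule, their relatives by sequence, marker lists and the 3 assays most alike to miR-10a and miR-10b. Assays named beside them (miR-542-5p, miR-218-2*) were chosen after their values were seen. The members and lists were chosen with earlier results of these data known. Replicate numbers were taken to pair treated with untreated αTC1-6 in the replicate block only, and the main fits were unpaired. Deviations from group means correlated in every pair (r from 0.259 to 0.476 over 278 assays), and samples of unlike number were not compared. For the interaction, the block also joined 24 h and 48 h samples of the same number. The alternatives were other references, no filter or a Ct in every sample, a cap on Ct of 35, undetermined wells left out, both cards adjusted together, all 15 samples in 1 fit, a replicate block, a prior variance following the mean, the non-normalized table, the 48 h controls and leaving out each replicate. The mean of only those duplicate wells with a Ct was added after seeing the data.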

Additional observations from a re-analysis of the deposited data

Results flagged for a closer look

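MiR-196a* was singled out because all 3 treated αTC1-6 samples were higher in level than the untreated sample of the same number at 24 h and all 3 were lower at 48 h. The difference between the effects, -5.75 on the log2 scale, did not pass the test (limma adjusted p = 0.336). The wells of miR-10b in αTC1-6 treated for 24 h were singled out because the non-normalized table gave a Ct of 21.56 in replicate 1 and 23.44 in replicate 3, where the normalized table has undetermined wells and the untreated cells have none in either table. Why the tables differ was not tested.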

How the results depend on the processing

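The number of Hox-cluster assays called between the lines was 2, and it became 0 when a Ct was required in every sample (3 tested), 1 with undetermined wells as missing (5 tested), and 0 to 3 when each replicate was left out. It was 0 in the cytokine and time comparisons under all alternatives, except for the interaction, at 0 to 1 when a replicate was left out. MiR-10a was no longer called in the non-normalized table (-9.87). MiR-10a* was called with Ct above 35 set to 35 (-6.13), with undetermined wells as missing (-5.28) and in the non-normalized table (-5.01), and it lay between -9.15 and -5.28 when each replicate was left out. Directions turned between the lines for miR-10b* in the non-normalized table (1.24) and for miR-196b in the non-normalized table (-0.79), with undetermined wells as missing (-0.29) and without βTC1 replicate 1 (-0.29, in a range from -0.29 to 3.40 when each replicate was left out), and at 48 h for miR-10a with undetermined wells as missing (1.40). MiR-10a and miR-10b could not be fitted between the lines with undetermined wells as missing, with a Ct in every sample, or without any 1 of the βTC1 samples.

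Over all assays, calls ranged from 81 to 164 between the lines, 0 to 2 and 0 to 5 for cytokines at 24 h and 48 h, 0 to 30 between the untreated αTC1-6 of both times, and 0 to 4 for the interaction. With the replicate block no call of a Hox-cluster assay changed: 2 were called between the lines (miR-10a adjusted p = 0.00127, miR-10b adjusted p = 0.00131) and 0 elsewhere, where the block left 0 calls over all assays for cytokines at 24 h and at 48 h and 1 for the interaction. Between the lines and between times, samples share only a number (r from 0.0642 to 0.0945 and from -0.0447 to 0.238), and the block moved the calls over all assays to 121 of 472 tested and to 23 of 487.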
